A study of Mus musculus with 12 samples.

Results

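Eosinophils store a small set of cationic proteins in their cytoplasmic granules, and 6 of the genes for them were followed here through 3 subsets of eosinophils from the mouse small intestine (SI). The genes were taken by symbol from the deposited table, and all 6, Prg2, Prg3, Epx, Ear1, Ear2 and Ear6, were found among its 36047 genes. RNA sequencing was done on 12 libraries, 4 from each of the α4β7+, α4β7− CD22− and CD22+ subsets, so named for the integrin α4β7 and the lectin CD22 on the cell surface. All cells came from wild type C57BL/6J mice, labeled female and in the age range of young adults, and no mouse was treated. The cells were sorted from lamina propria of the SI as CD45+ CD11b+ Siglec-F+ cells lacking Ly6G and MHC class II, and the cells of a pair of mice were combined in each library. The study used the markers as an approximate order of time spent in the SI, from α4β7+ (younger) to CD22+ (older), and the comparisons here ask how granule protein transcripts differ along that order. Because a library is a pool of cells, fewer cells with a transcript and less of it in each cell cannot be told apart, and a p-value measures the spread between pooled libraries.

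Granule proteins are made mainly while eosinophils mature in the bone marrow and are then stored, so a mature eosinophil can hold much protein and little of the corresponding mRNA. Prg2 encodes major basic protein, which packs into the crystalline granule core, and Prg3 encodes its homolog. Epx encodes eosinophil peroxidase, a heme enzyme of the granule matrix. The Ear genes encode the eosinophil-associated ribonucleases, a rodent family that belongs to the RNase A superfamily and has many near-identical copies.

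The deposited values are normalized, so their sums do not show how deeply each library was sequenced. The sums lay between 15783607 and 16915755 in α4β7+, 15011473 and 15740374 in α4β7− CD22−, and 14286474 and 14758267 in CD22+ libraries. They were thus lower at each step without overlap. Between 19760 and 21960 genes were above 0, and 3 reads, the floor used here, corresponded to about 2.56 to 3.48 normalized counts. Each of the 6 genes was above that floor in every library. The sort markers followed the labels, with Itgb7, the β7 chain, lower in α4β7− CD22− and CD22+ than in α4β7+ (log2 fold changes of −3.57 and −4.12) and Cd22 higher (1.99 and 3.58), all of them called. Siglecf, which defines the cells, was level, with log2 fold changes of 0.05 and −0.04 against α4β7+.

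All 6 genes had their highest mean in α4β7+ eosinophils. Of the 6, 3 were called lower in α4β7− CD22− than in α4β7+ eosinophils (Prg2, Ear1 and Ear6), and 5 were called lower in CD22+ than in α4β7+ eosinophils (the same 3 with Epx and Ear2). A call required a change of 1.5-fold or more and a p that, adjusted by Benjamini-Hochberg over the 15249 genes tested, did not exceed 0.05 in a limma fit of log2(normalized count + 1). Among all genes tested, 4.35% were called lower and 3.7% higher in α4β7− CD22− than in α4β7+, and 6.39% were called lower and 5.6% higher in CD22+ than in α4β7+. None of the 6 was called between CD22+ and α4β7− CD22− eosinophils in the fit without a replicate block, where 0.393% of genes were called lower and 0.21% higher, although 3 of the 6 had an unadjusted p of at most 0.00219 and 4 one under 0.05. The study, which tested with DESeq2, named Ear2 among the genes that differ between these subsets. With the replicate number as a block, which the check of pairing favored for this comparison, Epx was called lower there (log2 fold change −0.87, adjusted p = 0.0355, limma). The median log2 fold change of the 6 genes was −0.75, −1.52 and −0.84 in the 3 comparisons in that order, beside medians of 0.003, 0.014 and −0.0014 over all genes tested. The comparisons share libraries and are not independent of each other.

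**Figure D1:**
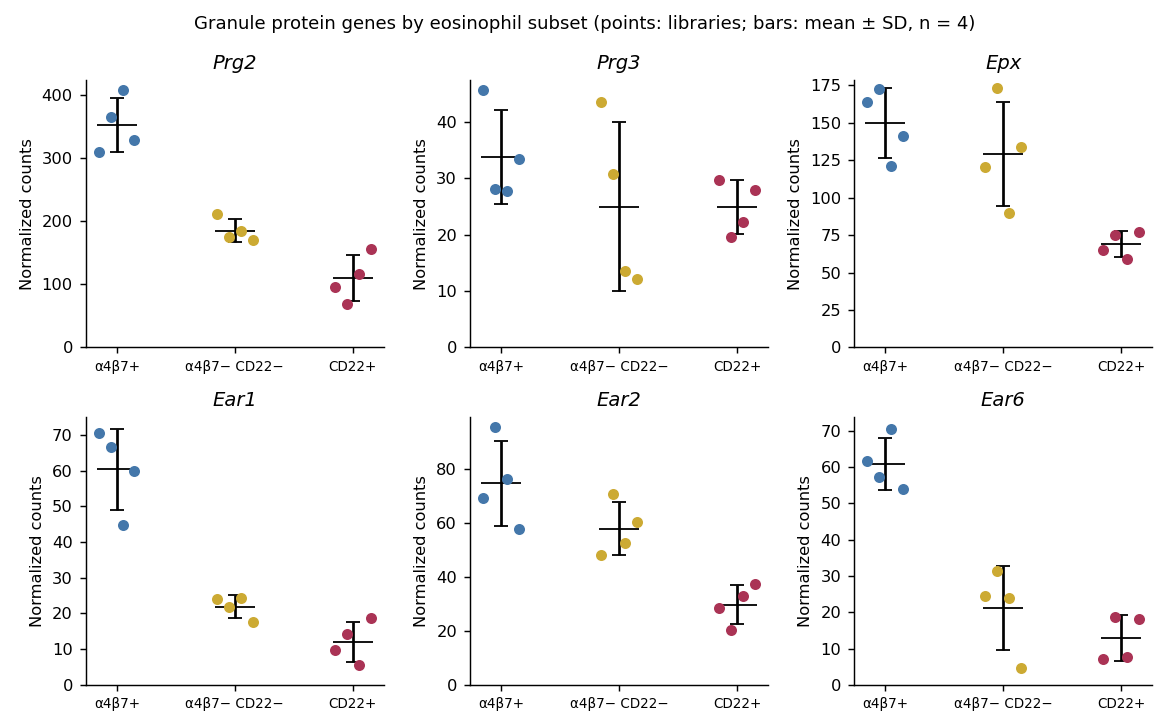
Normalized counts of each granule protein gene (vertical axes, linear, starting at 0) in the 3 eosinophil subsets, with 1 point per library and the mean ± SD of 4 libraries. Prg2 is lower at each step without overlap, with means that go from 352.4 to 185.1 to 109.7, whereas the Prg3 points of the 3 subsets overlap.

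Prg2 was the most abundant of the 6 and the one whose libraries did not overlap at either step. It lies on chromosome 2 (GRCm38, 84980461 to 84983632, plus strand) in 6 exons. The 4 α4β7+ libraries held 309, 365.3, 407.2 and 328 normalized counts, the 4 α4β7− CD22− libraries held 211.8, 174.3, 184.1 and 170.0, and the 4 CD22+ libraries held 96.4, 69.2, 116.9 and 156.2. Every library of a subset was thus below every library of the subset before it, a pattern held by 1.61% of the genes tested. Means were 352.4 ± 43.4 (SD, n = 4) for α4β7+, 185.1 ± 18.8 for α4β7− CD22− and 109.7 ± 36.7 for CD22+ eosinophils. Against α4β7+, the log2 fold change was −0.92 in α4β7− CD22− (SE 0.205, adjusted p = 0.00683, limma) and −1.73 in CD22+ (SE 0.205, adjusted p = 2.09e-05), or 1.9-fold and 3.31-fold lower. From α4β7− CD22− to CD22+ it was −0.81, with a 95% interval from −1.24 to −0.37 and an adjusted p of 0.0904. Without CD22+ replicate 4, the highest of its subset, this last difference was called (log2 fold change −0.99, adjusted p = 0.0259). The same library had 284.7 normalized counts of Itgb7, against 98.7 to 122.1 in the other 3, and the highest sum of the 6 granule genes in its subset, 335.4 against 216.8 to 243.9. The part of this in the granule gene values was not tested.

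Prg3, which lies 4583 bases downstream of Prg2 on the same strand (chromosome 2, 84988215 to 84993886), was not called in any comparison. Its α4β7+ libraries held 45.7, 28.1, 27.8 and 33.5 normalized counts, its α4β7− CD22− libraries 43.5, 30.7, 13.7 and 12.1, and its CD22+ libraries 29.7, 19.5, 22.2 and 28.0. The 3 subsets overlapped, and the α4β7− CD22− libraries fell into a higher and a lower pair. The log2 fold change against α4β7+ was −0.58 in α4β7− CD22− (95% interval −1.43 to 0.28, adjusted p = 0.391) and −0.42 in CD22+ eosinophils (−1.27 to 0.44, adjusted p = 0.526), so that a fall as large as that of Epx lies within both intervals. The sign of its difference between CD22+ and α4β7− CD22− (log2 fold change 0.16, adjusted p = 0.949) turned when either of the lower α4β7− CD22− libraries was left out. The coding sequences of Prg2 and Prg3 were 64.1% identical over their alignment, and their transcripts shared no run of 31 bases, the word length that Kallisto uses, so reads could be assigned to each. The ratio of Prg2 to Prg3 normalized counts was 11.1 ± 3.52 (SD, n = 4) over the α4β7+ libraries, 9.51 ± 4.91 over the α4β7− CD22− libraries and 4.41 ± 1.19 over the CD22+ libraries. The 4 CD22+ ratios, from 3.24 to 5.59, were all below the lowest α4β7+ ratio of 6.76, and the difference between the ratios was not tested.

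Epx differed between CD22+ and α4β7+ eosinophils. The gene has 13 exons on the minus strand of chromosome 11 (87864000 to 87875536). Normalized counts of Epx were 164, 172.8, 121.1 and 140.9 over the α4β7+ libraries, 120.6, 173, 89.5 and 133.9 over the α4β7− CD22− libraries, and 64.8, 74.9, 58.7 and 77.2 over the CD22+ libraries. All CD22+ libraries were below all others, whereas the other subsets overlapped over most of their range. Epx was 2.15-fold lower in CD22+ than in α4β7+ eosinophils (log2 fold change −1.10, SE 0.209, adjusted p = 0.00138, limma). The α4β7− CD22− value was close to that of α4β7+ (log2 fold change −0.24, 95% interval −0.68 to 0.21, adjusted p = 0.521). Between CD22+ and α4β7− CD22− the log2 fold change was −0.87 (SE 0.209, adjusted p = 0.0704), and Epx was called there once the replicate number entered the fit as a block (log2 fold change −0.87, adjusted p = 0.0355) or when α4β7− CD22− replicate 3, its lowest library, was left out (log2 fold change −1.03, adjusted p = 0.0372).

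Of the other animal heme peroxidases, Mpo and Lpo, which lie within 100 kb of Epx on chromosome 11, did not reach the average of 10 normalized counts needed for the test, and Pxdn was not called in any comparison. Mks1, named here after its values were seen, ends 197 bases from Epx on the opposite strand and was called higher in α4β7− CD22− and in CD22+ than in α4β7+ eosinophils (log2 fold changes of 0.90 and 0.75, adjusted p = 0.00859 and 0.0181, limma).

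The Ear genes all lie on chromosome 14, with Ear1 on the minus strand (43818765 to 43875517), Ear2 on the plus strand (44102654 to 44103534) and Ear6 well apart from both on the plus strand (51853699 to 51854643). Their sequences bear directly on how well each can be counted. Over the coding sequence Ear1 and Ear2 were 95.1% identical, and Ear6 was 87.3% and 87.6% identical to them. The stretch of 60 coding bases in which the 3 genes differ most, bases 68 to 127 counted from the first base of the start codon, is printed to show what separates them, with capitals at the 15 positions where they are not all the same.

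Ear1: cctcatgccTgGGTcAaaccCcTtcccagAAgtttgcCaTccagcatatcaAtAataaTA
Ear2: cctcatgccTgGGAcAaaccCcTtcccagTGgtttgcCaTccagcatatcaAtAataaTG
Ear6: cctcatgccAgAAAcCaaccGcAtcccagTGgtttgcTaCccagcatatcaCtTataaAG

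Even here Ear1 and Ear2 differ at only 4 positions, whereas Ear1 and Ear6 differ at 15 and Ear2 and Ear6 at 11. Of the 31-base words in the annotated transcripts of Ear1, 73.6% also occur in a transcript of another gene, the pseudogene Ear-ps9 (48.6%) and Ear2 (40.6%) first among them. The share was 60.5% for Ear2 and 8.5% for Ear6, and 0% for Prg2, Prg3 and Epx. The division of reads between Ear1 and Ear2 is therefore uncertain, and the Ear6 row is the most separable of the 3.

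Ear1 was higher in α4β7+ eosinophils than in both other subsets without overlap. The α4β7+ libraries held 70.5, 66.6, 44.7 and 59.99 normalized counts, the α4β7− CD22− libraries 24.1, 21.7, 24.3 and 17.7, and the CD22+ libraries 9.85, 14.3, 5.50 and 18.6. The last pair of subsets overlapped through the highest CD22+ library alone. The log2 fold change against α4β7+ was −1.41 in α4β7− CD22− (SE 0.361, adjusted p = 0.0159, limma) and −2.33 in CD22+ eosinophils (SE 0.361, adjusted p = 0.000263), or 2.66-fold and 5.02-fold lower. From α4β7− CD22− to CD22+ it was −0.92 (95% interval −1.69 to −0.14, adjusted p = 0.374).

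Ear2 kept most of its level in α4β7− CD22− eosinophils. The α4β7+ libraries held 69.4, 95.5, 76.4 and 57.7 normalized counts, the α4β7− CD22− libraries 48.1, 70.7, 52.7 and 60.2, and the CD22+ libraries, all of them below all others, 28.6, 20.2, 33.0 and 37.2. The log2 fold change against α4β7+ was −0.35 in α4β7− CD22− (95% interval −0.90 to 0.20, adjusted p = 0.419) and −1.31 in CD22+ eosinophils (SE 0.257, adjusted p = 0.00179, limma). The ratio of Ear2 to Ear1 was 1.27 ± 0.363 (SD, n = 4) in α4β7+ and 2.71 ± 0.725 in α4β7− CD22− eosinophils, without overlap between the libraries, and 3.08 ± 2.04 in CD22+ eosinophils. From α4β7− CD22− to CD22+ the log2 fold change of Ear2 was −0.96 (SE 0.257, adjusted p = 0.111), without overlap. The study reported Ear2 as different between these subsets with DESeq2, whereas the limma fit did not call it. Whether Ear1 and Ear2 differ in their change was not tested, and shared reads could move the ratio of Ear2 to Ear1.

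For Ear6 the α4β7+ libraries held 61.5, 57.1, 70.5 and 53.9 normalized counts, the α4β7− CD22− libraries 24.5, 31.4, 24.0 and 4.72, and the CD22+ libraries 7.09, 18.7, 7.55 and 18.1. The α4β7+ libraries stood above all others, and the lowest value of all, in α4β7− CD22− replicate 4, lay below all CD22+ libraries. Ear6 was called lower than in α4β7+ in CD22+ eosinophils (log2 fold change −2.27, SE 0.512, adjusted p = 0.0049, limma) and in α4β7− CD22− eosinophils (−1.73, SE 0.512, adjusted p = 0.0339). The latter call was lost without α4β7− CD22− replicate 4 (log2 fold change −1.16, adjusted p = 0.0706). It was also lost without any 1 of the α4β7+ replicates 1, 2, 3 and 4 (log2 fold changes of −1.72, −1.76, −1.66 and −1.78, adjusted p = 0.0696, 0.0645, 0.0819 and 0.0605).

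Summing the Ear rows removes the division of reads between the rows summed, though not that with the pseudogenes Ear-ps9 and Ear-ps2, which were not in the sum. The sum took in Ear1, Ear2 and Ear6 together with Ear4, Ear10, Rnase2a and Rnase2b, which were at or near 0 in nearly all libraries. It ranged from 174.8 to 225.3 normalized counts over the α4β7+ libraries, from 84.2 to 123.8 over the α4β7− CD22− libraries, and from 45.5 to 74.99 over the CD22+ libraries, with no overlap between neighboring subsets. The sum had a log2 fold change of −0.97 in α4β7− CD22− against α4β7+ (adjusted p = 0.00366, limma), −1.85 in CD22+ against α4β7+ (adjusted p = 6.99e-06) and −0.88 in CD22+ against α4β7− CD22− (adjusted p = 0.046). The last of these calls was narrow. It was lost when any 1 of the 12 libraries other than CD22+ replicate 4 was left out (log2 fold changes from −0.97 to −0.78, adjusted p from 0.055 to 0.167) and with the replicate block (log2 fold change −0.88, adjusted p = 0.0794). Both calls against α4β7+ were kept in all of these refits.

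**Figure D2:**
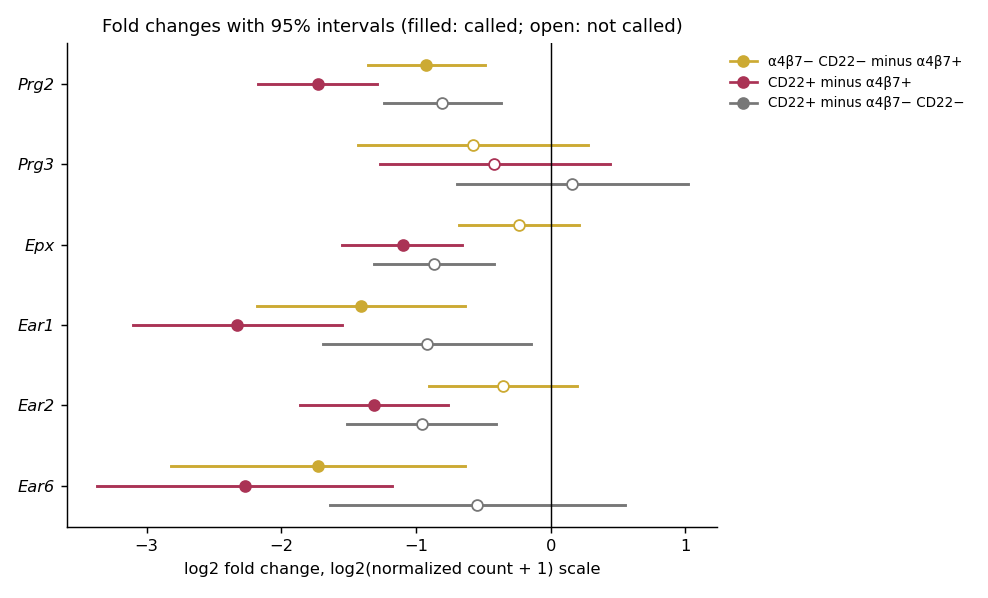
The log2 fold change (horizontal axis) of each granule protein gene in the 3 comparisons, with 95% intervals and filled points where the gene was called. Prg2, Epx, Ear1, Ear2 and Ear6 are called between CD22+ and α4β7+ eosinophils, and no gene is called between CD22+ and α4β7− CD22− eosinophils in this fit, which has no replicate block.

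Overlap between libraries was counted as well. In α4β7− CD22− against α4β7+ eosinophils, 3 of the 6 genes were lower in all 4 libraries than in any of the other subset, beside 9.8% of the genes tested. In CD22+ against α4β7+ they were 5 of 6, beside 11.8%, and in CD22+ against α4β7− CD22− they were 3 of 6 (Prg2, Epx and Ear2), beside 3.72%.

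Divided by transcript length, Prg2 had the highest level of the 6 in every subset, with means of 420.5, 220.8 and 130.9 normalized counts per kb in α4β7+, α4β7− CD22− and CD22+ eosinophils. Ear2 came second throughout, with 104, 80.6 and 41.4 normalized counts per kb, and its libraries did not overlap those of Prg2 in any subset. In α4β7+ eosinophils Ear1 (84.8), Ear6 (68.0), Epx (55.7) and Prg3 (35.6 normalized counts per kb) followed, and each gene from Ear2 down overlapped the next in this order. In CD22+ eosinophils the order after Ear2 was Prg3 (26.2), Epx (25.6), Ear1 (16.9) and Ear6 (14.4 normalized counts per kb), again with overlap between each gene and the next. The Ear levels carry the uncertainty of shared reads.

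Together the 6 genes held 731.7 ± 47 normalized counts (SD, n = 4) per α4β7+ library, 440.3 ± 55.6 per α4β7− CD22− library and 258.1 ± 52.8 per CD22+ library. These are 0.0045%, 0.00288% and 0.00177% of the sum over all genes, so that granule protein transcripts were a minor part of the RNA in all subsets. Prg2 made up 48.2% ± 4.86 of the sum in α4β7+ and 41.8% ± 7.29 in CD22+ libraries. The share of Prg3 was 4.65% ± 1.29 in α4β7+ and 9.77% ± 1.92 in CD22+ libraries, without overlap between them.

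**Figure D3:**
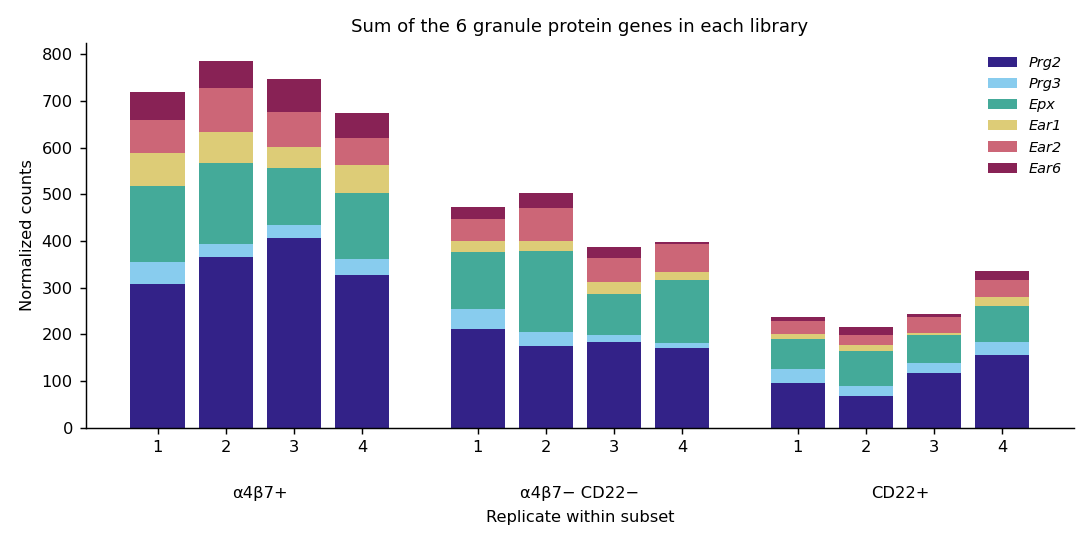
Summed normalized counts of the 6 granule protein genes (vertical axis) in each of the 12 libraries, stacked by gene and ordered by subset and replicate. The sum lies from 673.8 to 785.4 in α4β7+, from 388.3 to 501.9 in α4β7− CD22− and from 216.8 to 335.4 in CD22+ libraries.

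Across the 12 libraries the 15 pairs among the 6 genes correlated positively on the log2 scale, with Pearson's r from 0.194 to 0.9 and a median of 0.751. These points share their subset means, and once the subset mean of each gene was subtracted the median was 0.217, with r from −0.164 to 0.617 and 11 of 15 pairs above 0. Prg2 and Ear2 kept an r of 0.617 and Ear1 and Ear6 one of 0.559, whereas Ear1 and Ear2, which share reads, had −0.118. The covariation of the granule genes over the series was thus mostly that between subsets.

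**Figure D4:**
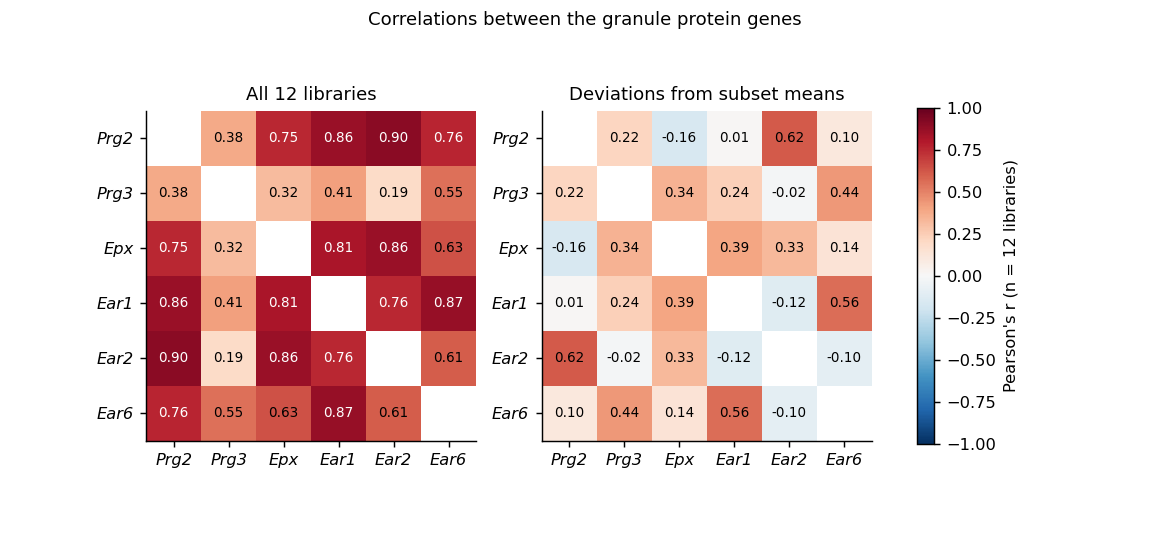
Pearson's r between the 6 granule protein genes over 12 libraries, on log2(normalized count + 1), for the values as they are (left) and for deviations from the subset means (right). The left panel runs from 0.194 to 0.9 and the right panel from −0.164 to 0.617.

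Genes outside the set were ranked by their correlation with each member over the same 12 libraries, among the 9465 genes with a mean of at least 100 normalized counts. Closest to Prg2 were Gpx4 (r = 0.973), Isg15 and Ncapd2, and closest to Ear2 were Isg15 (r = 0.956), Sec11a and Ncapd2. Ear1 lay closest to Spred2 (r = 0.975), Ilk and Ctse, Ear6 to Ptpn12 (r = 0.955), Rap2a and Rps6ka5, and Epx to Dapp1 (r = 0.924), Sde2 and Tmigd3. The nearest genes of Prg3 were BC004004 (r = 0.954), Lancl2 and Ndufaf8. Prg2 and Ear2 shared Isg15 and Ncapd2, and no other pair of the 6 shared a nearest gene. These are the highest of many correlations over 12 points with common subset means and are given as a description.

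The other lists of genes, grouped by role, place these differences. Of the RNase A superfamily, listed with the ribonuclease inhibitor Rnh1, 19 members were in the table and 11 passed the filter on low values. Of those 11, 5 were called lower in α4β7− CD22− than in α4β7+ eosinophils and 6 in CD22+ than in α4β7+, beside 4.35% and 6.39% of all genes tested, and these counts include Ear1 and Ear6 in the first case and all 3 Ear genes in the second. Rnase12 had means of 253.3 ± 40, 81.1 ± 13.6 and 45.8 ± 15.8 normalized counts along the order of the subsets, with log2 fold changes of −1.63 and −2.50 against α4β7+ (adjusted p = 0.000437 and 4.14e-06, limma). Rnase6, an antimicrobial ribonuclease, had 759.9 ± 26, 420.8 ± 63.9 and 343.9 ± 21.1 normalized counts (log2 fold changes −0.86 and −1.14, adjusted p = 0.000106 and 3.36e-06). Rnh1, which encodes the cytosolic inhibitor that binds RNase A type enzymes, fell with them, from 1573 ± 54.3 to 943.8 ± 71.5 and 748.8 ± 53.1 normalized counts (log2 fold changes −0.74 and −1.07, adjusted p = 2.22e-05 and 2.36e-07). Rnase4 was the one member called higher, in CD22+ against α4β7+ eosinophils (log2 fold change 0.88, adjusted p = 0.0350, limma), and this call was lost without α4β7+ replicate 1, 3 or 4 or CD22+ replicate 1, 3 or 4 (log2 fold changes of 0.75, 0.77, 0.81, 0.84, 0.80 and 0.91, adjusted p from 0.0547 to 0.0963), and also with no filter (adjusted p = 0.0552) or with only the subsets compared in the fit (0.0526). Rnase1, named here after its values were seen, was not called and ranged from 0 to 2765 normalized counts within α4β7+ alone.

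Heme is the cofactor of eosinophil peroxidase, and none of the 9 heme synthesis genes was called in any comparison. Alas1, which encodes the first enzyme of the pathway and was the most abundant of the 9, passed the adjusted p but not the fold change in CD22+ against α4β7+ eosinophils (log2 fold change −0.46, adjusted p = 0.00487, limma).

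Among 12 genes for factors that act on granule gene transcription in developing eosinophils and other granulocytes, 1 was called higher in α4β7− CD22− than in α4β7+ eosinophils, and 1 was called higher and 2 lower in CD22+ than in α4β7+. Over all genes tested these shares were 3.7% higher in the former and 5.6% higher and 6.39% lower in the latter, so that 1 gene of 12 is near the background. Gata2 was higher in both comparisons. It went from 399.2 ± 37.7 normalized counts in α4β7+ to 621.9 ± 46.5 and 603 ± 66.1 (log2 fold changes 0.64 and 0.59, adjusted p = 0.000832 and 0.000943, limma). The latter lies just above the fold change required and was lost without α4β7+ replicate 3 or 4 or CD22+ replicate 1 (log2 fold changes of 0.55, 0.55 and 0.52) and with a pseudocount of 10 (0.58). Cebpb was lower in CD22+ than in α4β7+ eosinophils (log2 fold change −0.80, adjusted p = 1.44e-06). Id2, an inhibitor of helix-loop-helix factors, was lower by −0.60 on the log2 scale (adjusted p = 0.000107), and this call was lost without α4β7+ replicate 2 or CD22+ replicate 2 or 3 (log2 fold changes of −0.56, −0.58 and −0.57), and also after rescaling by the 75th percentile (−0.57) or quantile normalization (−0.56).

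RefSeq promoter sequences on GRCm38.p6 were matched for 5 of the 6 genes, Prg3, Epx, Ear1, Ear2 and Ear6, and the 250 bases before the start were searched on both strands. The Ear promoters are printed because the 3 genes moved in the same direction, and that of Prg3 because this gene was not called. Capitals mark every match, on either strand, to the GATAA core of GATA factor sites, to the CCAAT box or to the TATA box letters TATAAA, and no matches overlapped. Ear6 was searched over the same 250 bases but is shown only up to the first annotated exon of its longer GENCODE transcript. The Ear1 window lies inside the annotated span of that gene (43818765 to 43875517), so it precedes an internal start and not the outermost one.

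Prg3, chr2:84987965-84988214, plus strand: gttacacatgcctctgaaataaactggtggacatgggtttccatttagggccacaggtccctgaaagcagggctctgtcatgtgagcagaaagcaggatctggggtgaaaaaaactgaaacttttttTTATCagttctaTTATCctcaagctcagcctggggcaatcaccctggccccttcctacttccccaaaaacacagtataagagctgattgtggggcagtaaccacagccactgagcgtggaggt
Ear1, chr14:43819640-43819889, minus strand: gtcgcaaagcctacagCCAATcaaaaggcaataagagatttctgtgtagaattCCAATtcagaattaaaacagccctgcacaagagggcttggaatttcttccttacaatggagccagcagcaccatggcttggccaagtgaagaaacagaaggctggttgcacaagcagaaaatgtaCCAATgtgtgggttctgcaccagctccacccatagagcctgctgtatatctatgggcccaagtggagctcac
Ear2, chr14:44102404-44102653, plus strand: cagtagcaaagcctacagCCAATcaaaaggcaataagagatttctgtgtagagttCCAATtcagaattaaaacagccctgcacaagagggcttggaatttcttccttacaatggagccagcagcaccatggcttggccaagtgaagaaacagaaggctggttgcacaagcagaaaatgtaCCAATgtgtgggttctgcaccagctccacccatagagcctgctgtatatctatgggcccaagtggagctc
Ear6, chr14:51853518-51853698, plus strand: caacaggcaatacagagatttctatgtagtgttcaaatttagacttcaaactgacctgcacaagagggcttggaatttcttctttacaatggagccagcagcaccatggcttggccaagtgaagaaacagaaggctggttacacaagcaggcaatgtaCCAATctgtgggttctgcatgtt

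The promoters of Ear1 and Ear2 were 99.2% identical over their alignment, and that of Ear6 was 85.1% identical to Ear1 and 85.4% to Ear2 over the full 250 bases. CCAAT was found 3 times in Ear1 and in Ear2 and once in Ear6, and at least once in 33.8% of all 32851 RefSeq mouse promoters of the same length. GATAA was found at 2 places in Prg3 and in none of the other 4 promoters, beside 22.6% of all promoters. TATAAA was found once in Epx (12.4% of all promoters). TTGCNNAA, which many sites of C/EBP factors hold, was found once in Ear1 and once in Ear2 (9.6%), and AGGAAG, an ETS factor motif, once in Prg3, Ear1 and Ear2 (29.5%). These are matches of letters in this window and do not show binding.

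Of 19 genes for the packing and release of granules, 1 was called lower in α4β7− CD22− and 4 in CD22+ than in α4β7+ eosinophils, beside 4.35% and 6.39% of all genes tested, and none was called higher. The first of these counts is near that background. Sytl1, which encodes a Rab27 effector, fell from 164.6 ± 17.2 to 63.5 ± 3.1 and 47.2 ± 13.9 normalized counts along the same order (log2 fold changes −1.36 and −1.82, adjusted p = 0.000523 and 1.94e-05, limma). Srgn, the proteoglycan core protein that holds cationic granule contents, was lower in CD22+ than in α4β7+ eosinophils (log2 fold change −0.80, adjusted p = 8.79e-06, not called after quantile normalization at −0.50), as were the membrane fusion genes Snap23 (−0.80, adjusted p = 3.53e-06) and Stx3 (−0.69, adjusted p = 1.83e-05). The median log2 fold change of the 19 genes in this comparison was −0.19.

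Granule genes typical of neutrophils did not move as 1 group. Of 10 listed, 4 passed the filter, and Elane was at 0 in every library, with Prtn3 and Camp at or under the floor. Mmp9, the gelatinase and by far the most abundant, was lower in both other subsets than in α4β7+ eosinophils (log2 fold changes −0.66 and −1.01, adjusted p = 8.59e-05 and 6.77e-07, limma), the first of which was not called after quantile normalization (−0.51), and Mmp8 was lower in CD22+ (−2.71, adjusted p = 0.0014). The size of the Mmp8 value depends on the pseudocount (−1.56 with a pseudocount of 10, −2.99 with 0.1), since 2 of its 4 CD22+ libraries, at 1.86 and 3.11 normalized counts, were at or under the floor. Ngp, the neutrophilic granule protein gene, went the other way, from 31.6 ± 4.27 to 106.4 ± 20 and 143.4 ± 12.9 normalized counts (log2 fold changes 1.71 and 2.15, adjusted p = 2.58e-05 and 1.21e-06).

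**Figure D5:**
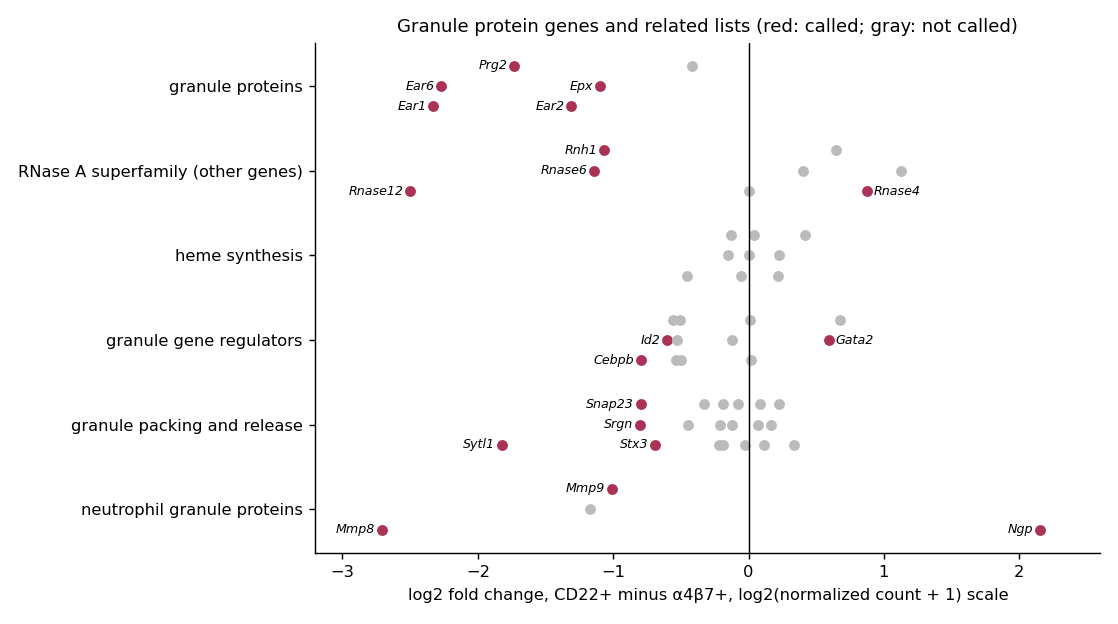
The log2 fold change of CD22+ against α4β7+ eosinophils (horizontal axis) for the genes tested of each list, 1 point per gene, red where called. The granule proteins lie from −2.33 to −0.42, the heme synthesis genes hold no called gene, and Gata2, Rnase4 and Ngp are called higher. Points are set apart vertically within a list for legibility.

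Markers of other cells were listed to see whether they moved with the granule genes. None of 7 macrophage, 7 epithelial and 5 B and plasma cell markers was called in any comparison, nor was the single mast cell marker tested of 6. Against α4β7+, 7 and 6 of the 7 epithelial markers had lower estimates in α4β7− CD22− and CD22+ (median log2 fold changes −0.59 and −0.53). Lower estimates were held by 6 and 2 of the 7 macrophage markers and by 4 and 3 of the 5 B and plasma cell markers. The epithelial sum ranged from 2229 to 5112, from 1414 to 3267 and from 922.4 to 5392 normalized counts along the order of the subsets. Of 4 T cell markers, Cd3e and Cd8a were called lower in α4β7− CD22− than in α4β7+ eosinophils (log2 fold changes −1.11 and −0.92), beside 4.35% of all genes, and the summed T cell markers ranged from 669.9 to 1101, from 472.4 to 669.4 and from 681.6 to 1038 normalized counts in α4β7+, α4β7− CD22− and CD22+ libraries. The sum of the 6 neutrophil markers ranged from 15480 to 23340, from 7886 to 10180 and from 5589 to 6320 in the same order. Of those tested, Retnlg, which makes up most of this sum, was lower and Cxcr2 and Csf3r were higher in both other subsets than in α4β7+, while S100a8 was at or under the floor in all libraries. S100a9 passed the filter only through α4β7+, with 8.06 to 43.1 normalized counts there and 0 to 6.37 in CD22+ libraries. Of 6 Paneth cell markers tested, Defa30 was called higher in CD22+ than in α4β7+ eosinophils (log2 fold change 2.34), beside 5.6% of all genes, and its libraries overlapped, with 4.27 to 49.2 normalized counts in α4β7+ and 25.8 to 188.1 in CD22+. None of 5 cell cycle genes was called. Of the 8 eosinophil markers, which include Prg2 and Epx, all passed the filter, and 3 were called lower in α4β7− CD22− and 5 in CD22+ than in α4β7+ eosinophils, again beside 4.35% and 6.39%. Between CD22+ and α4β7− CD22− eosinophils 1 of the 8, the lipoxygenase gene Alox15, was called lower (log2 fold change −0.73, adjusted p = 0.000235, limma), beside 0.393%. The part of other cells in the granule gene differences was not tested.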

How the data were processed

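Deposited values were normalized counts per gene for 12 libraries. Per the labels and the study's methods, the authors trimmed reads with Trimmomatic 0.39, pseudoaligned them to mm10 with kallisto 0.46.1 and normalized counts with DESeq2 1.38.2. Fewer than all low values (55.1% to 76.5% per library) lay within 5% of a multiple of the commonest low value, so whole reads were not recovered and the deposited normalized signal was tested on a log scale. Library pairs correlated at 0.921 to 0.966, and none was identical. It is not stated whether normalization factors also differed between genes.

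Genes averaging above 10 normalized counts entered 1 limma (3.58.1, R 4.3.3, trend) fit of all 12 libraries on log2(normalized count + 1), in which fold changes of low genes are understated. Limma took the place of the authors' tool, which needs raw counts. On simulated data for CD22+ against α4β7+ (200 genes changed, 194 of them among the 15078 that passed the filter), 83.3% of changes of 2 and 58.2% of changes of 1 on the log2 scale were called, with 6 of 14884 unchanged genes. Positions were taken from GENCODE M21 (GRCm38), which held all 36047 identifiers, and promoters from RefSeq.

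Sources do not say that equal replicate numbers share mice. Deviations of equally numbered libraries correlated at 0.135 to 0.203 in all 4 pairs of CD22+ with α4β7− CD22−, which was treated as pairing, and at 0.033 and 0.087 on average in the comparisons of CD22+ and of α4β7− CD22− with α4β7+, where some pairs were under 0.1. The equally numbered α4β7− CD22− library was still the best match of all 4 α4β7+ libraries (r from 0.043 to 0.137, against −0.029 on average for other numbers). For CD22+ this held for 2 of the 4. Pairing with α4β7+ was thus not settled. The members and lists were chosen with earlier results of these data known. Besides the 6 members, genes called in at least 1 comparison, Rnh1 and the most abundant gene of each list could be named, and for each member the 3 genes correlated best with it. Alternatives covered the pseudocount, filter, scaling, trend, threshold, subsets fitted, block, Ear sum and each library left out.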

Additional observations from a re-analysis of the deposited data

Results flagged for a closer look

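The values of 35 genes given in the text, in 105 groups of 4 libraries, were compared with Dixon's 95% critical value for the distance of the highest or lowest library from the nearest other as a share of the range, and 10 groups held a library past it. Chance flags about 1 in 20 groups, and none of the 10 involved a granule protein gene. In α4β7+ replicate 2, Rnase1 had 2765 normalized counts, against 0 to 252.6 in the other 3 libraries, and Rnase4 had 124.5, against 51.2 to 59.2. In α4β7+ replicate 3, Ngp had 37.98 normalized counts, against 28.9 to 30.3. In α4β7− CD22− replicate 1, Cebpb had 9148 normalized counts, against 8188 to 8342, and Mmp9 had 14240, against 11870 to 12240. In α4β7− CD22− replicate 4, Alas1 had 3454 normalized counts, against 3843 to 3892, Cd3e had 103.0, against 54.6 to 60.7, and S100a8 had 1.028, under the floor, against 0 in the others. Itgb7 had 284.7 normalized counts in CD22+ replicate 4, against 98.7 to 122.1, and Csf3r had 1331 in CD22+ replicate 1, against 969.6 to 1021.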

How the results depend on the processing

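Over 18 values of the granule genes and 414 refits of them, 401 kept direction and side of the threshold, 8 lost a call, 3 gained one and 2 changed sign. The 8 were all Ear6 in α4β7− CD22− against α4β7+, which was lost in 5 of 12 refits with 1 library left out, with no filter (adjusted p = 0.0662), without the limma trend (0.051) and, in an alternative chosen after seeing the data, without the pair of libraries with most Rnase1 (0.0654). With a filter at an average of 50, which leaves out Prg3, Ear1 and Ear6, the granule genes called were 1 instead of 3 in α4β7− CD22− against α4β7+ and 3 instead of 5 in CD22+ against α4β7+. In CD22+ against α4β7− CD22−, the 0 called became 3 with the Ear rows summed (each of the 3 Ear genes counted by the sum), 1 with the replicate block, in which Epx was called (adjusted p = 0.0355), and 0 to 1 with 1 library left out. With 1 library left out they were 2 to 3 in α4β7− CD22− and 5 in CD22+ against α4β7+. The block changed no other call of a single granule gene. In refits added after seeing the data, the summed Ear row kept both calls against α4β7+ throughout but lost the third in 17 of 23 (log2 fold changes from −1.04 to −0.78 over all 23). Prg3 in CD22+ against α4β7− CD22− turned negative without α4β7− CD22− replicate 3 (−0.0509) or 4 (−0.105), within a range of −0.105 to 0.484.

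Among all genes, the adjusted p alone called 2265, 3223 and 164 in the 3 comparisons, against 1228, 1829 and 92 with the fold change, and limma without trend called 54 in the last. With 1 library left out the counts ranged from 1116 to 1227, 1656 to 1825 and 64 to 93. Of 503 refits of the 21 called values of the other listed granule, ribonuclease, regulator and packing genes, 20 lost a call and none changed sign, and the cell markers, sort markers and Mks1 were not followed over the alternatives. With 4 pooled libraries a subset and low normalized counts, the intervals of Prg3 and Ear6 are wide. An Ear call concerns reads that may come from a near-identical copy.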
